A study of Mus musculus with 4 samples.

Results

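Within the N2B27 medium, single mouse embryonic stem (ES) cells differed widely in the RNA of genes that respond to ERK signalling, and the cells at the top and the bottom of that range were compared across all other genes. Each cell was given an ERK target score, the mean of log2(CPM + 1) over Egr1, Dusp6, Spry4, Etv4 and Etv5, where CPM is a gene's count scaled to a common total of 1000000 counts on genes. The 13 highest and the 13 lowest of the 43 N2B27 cells that passed the limits on quality were the cells selected on this score, 26 cells of the 96 cells in the whole series. The other 17 N2B27 cells form a middle set. Because the members were chosen by measured values of the same cells, the score, its 5 genes and every contrast between the sets are given as a description, with no test and no p-value.

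ERK is the last kinase of a cascade that runs from receptors of fibroblast growth factors (FGFs) through RAS, RAF and MEK. In ES cells the cascade is driven largely by FGF4 that the cells make themselves, and it drives the loss of the naive state, in which cells can still form all lineages of the embryo. When ERK becomes active, a group of immediate-early genes is transcribed within minutes, and negative feedback genes of the DUSP, SPRY and SPRED families and transcription factors of the ETS family follow. The 2i medium contains an inhibitor of MEK, so that ERK output is held low. It also contains leukemia inhibitory factor (LIF) and an inhibitor of glycogen synthase kinase. N2B27 lacks all of these, so the media differ in more than MEK inhibition.

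The cells were wild-type mouse ES cells grown in 2i, passed through a sorter gate for small cells or left ungated, and plated on laminin in 2i or in N2B27 for 6 h before single cells were sorted and sequenced by Smart-seq2, a full-length method without molecular identifiers. The 4 combinations of medium and gate had 24 cells each and are 1 sample each, so there is no replicate of a condition. The small gate was set on scatter before plating and was meant to take cells leaving mitosis and in G1. Each medium had its own plate, and medium cannot be told apart from plate. Of the N2B27 cells, 22 of 24 small and 21 of 24 ungated cells passed the limits of 1200000 gene counts, 4400 genes and 5.2% mitochondrial counts, with 1656940 to 3616563 gene counts each, and 34 of 48 cells in 2i passed them. The defining markers of ES cells were detected in every set. The summed level of 8 such markers, Pou5f1, Sox2 and Nanog among them, was 5029 to 20879 CPM in high cells and 5691 to 30086 CPM in low cells, and none of the 8 differed between the sets by the rule used below.

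The score fell continuously from cell to cell with no gap at either edge of the sets. High cells scored from 5.83 to 7.63 with a median of 6.31, middle cells from 3.41 to 5.82 with a median of 4.70, and low cells from 1.74 to 3.40 with a median of 2.95. The last cell inside the high set and the first outside it scored 5.83 and 5.82, and the last cell outside the low set and the first inside it scored 3.41 and 3.40. The 34 cells in 2i scored from 0.24 to 5.15 with a median of 1.85. The median of low N2B27 cells was above that of 2i cells, and the highest 2i cell lay within the range of the middle set.

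**Figure D1:**
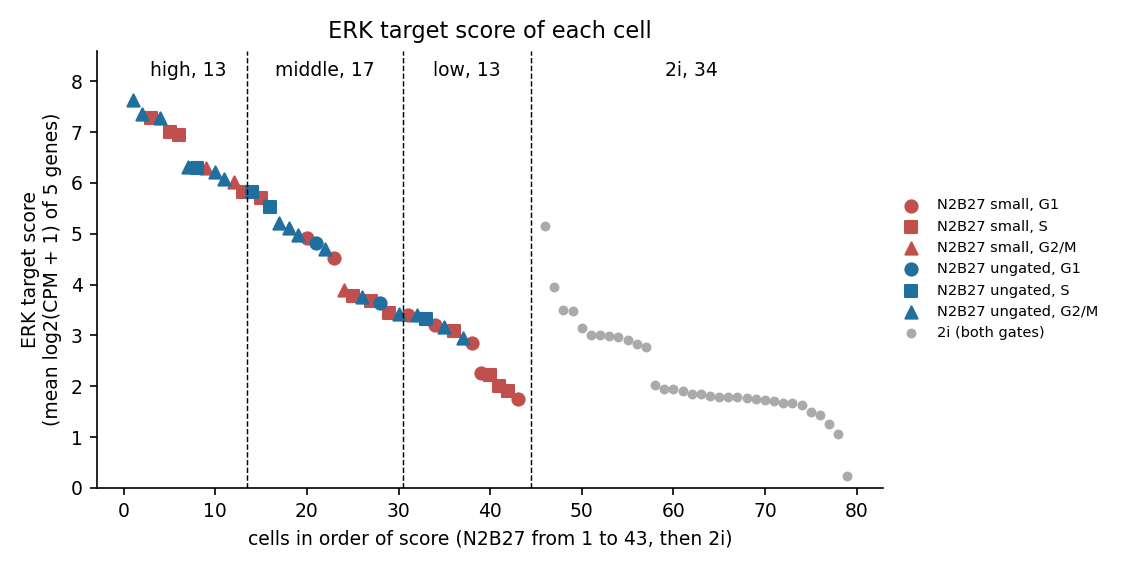
The ERK target score (mean log2(CPM + 1) of 5 genes) on the y axis is drawn for each N2B27 cell in order of score, coloured by gate and shaped by cell-cycle phase, and for each 2i cell in grey. High cells lie from 5.83 to 7.63 and low cells from 1.74 to 3.40, with 17 middle cells between the dashed lines.

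Both gates contributed to both sets. The high set held 6 small and 7 ungated cells, a share of small cells of 46.2% with an exact Clopper-Pearson 95% interval of 19.2% to 74.9%. The low set held 9 small and 4 ungated cells, a share of 69.2% with an interval of 38.6% to 90.9%. These intervals overlap and cover counting error only. Over all kept N2B27 cells, small cells scored 1.74 to 7.28 with a median of 3.72 and ungated cells scored 2.95 to 7.63 with a median of 5.11. The 6 cells with the lowest scores were all small.

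Phases, assigned from the expression of marker genes with cyclone, a classifier that compares pairs of genes, also differed between the sets. Of the 13 high cells 0 were in G1, which allows a share of up to 24.7%, 5 were in S and 8 in G2/M. Of the 13 low cells 5 were in G1, 5 in S and 3 in G2/M, and the 5 in G1 were all small. Within the small gate the high cells were 4 in S and 2 in G2/M and the low cells were 5 in G1 and 4 in S. Within the ungated cells 6 of 7 high and 3 of 4 low cells were in G2/M. The middle set had 4 cells in G1, 6 in S and 7 in G2/M.

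High cells had more genes with a count and less spike-in RNA than low cells. Genes with a count numbered 7528 to 9631 in high cells, with a median of 8586, and 5603 to 8387 in low cells, with a median of 7271, while the medians of total gene counts were 2658109 and 2861660. After each cell was thinned to 1200000 gene counts the medians were 7576 and 6305 genes. The ERCC spike-ins, a fixed amount of foreign RNA added to each cell, took a median of 1.09% of counts in high cells and 2.49% in low cells. Within small cells these medians were 1.37% and 3.51%, and within ungated cells 1.04% and 1.29%. A larger share of spike-in counts means less RNA of the cell itself in the library, and on CPM a smaller amount of RNA per cell is scaled away.

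**Figure D2:**
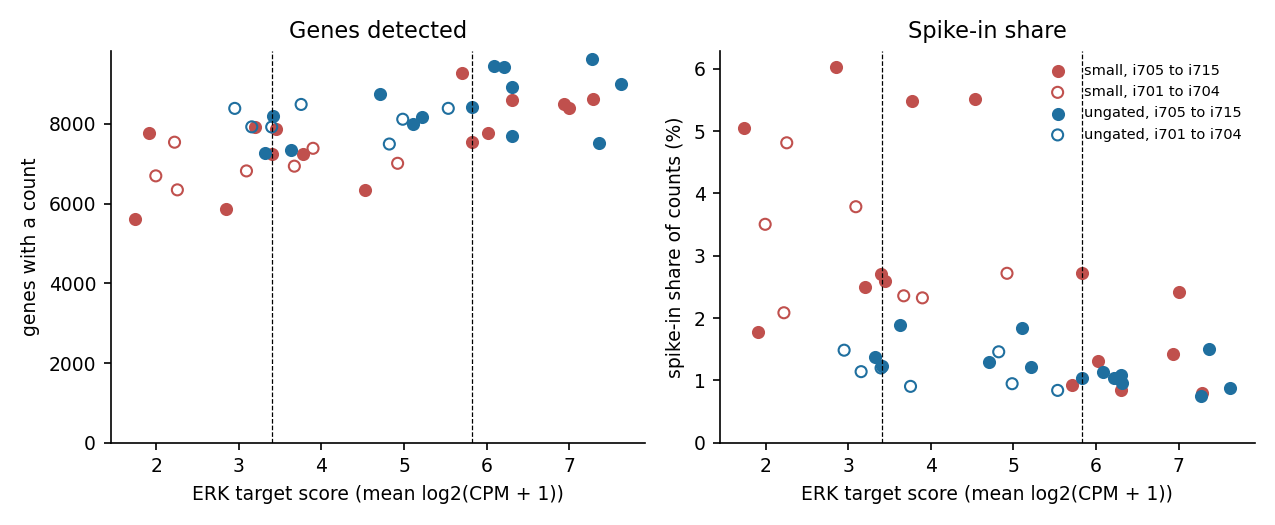
Genes with a count (left) and the spike-in share of counts in percent (right) on the y axes are plotted against the ERK target score, 1 point for each of 43 N2B27 cells, with red for small and blue for ungated cells and open points for cells of the i701 to i704 library indices. To the right of the right-hand dashed line, in the high set, cells have 7528 or more genes, and no point there is open.

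The library index also moved with the score, a pattern noticed after the values were seen. Cells of the i7 indices i701 to i704 made up 0 of 13 high, 7 of 17 middle and 7 of 13 low cells. In N2B27 the 14 cells with these indices had a median score of 3.53 and the 29 cells with i705 to i715 had 5.70. In 2i the corresponding medians were 1.86 and 1.85. The part of phase, RNA content, genes detected and index in the differences below was not tested.

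The 5 genes of the score did not contribute equally. Egr1, an immediate-early zinc finger transcription factor, ranged from 1.29 to 1425 CPM in high cells with a median of 304.2, and from 0 to 774.1 CPM in low cells with a median of 0.558. It reached 10 CPM in 12 of 13 high, 8 of 17 middle and 2 of 13 low cells. In 2i it had 2 counts in all, in 1 of 34 cells. Egr1 was thus well above or well below this level in most cells, and the sets overlapped through 2 low cells and 1 high cell.

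Dusp6, a phosphatase that inactivates ERK, had a median of 194.6 CPM in high cells (range 0 to 583.4) and 0.83 CPM in low cells (range 0 to 225.7), and reached 10 CPM in 12 and 4 cells. Etv4, an ETS factor, had a median of 115.5 CPM in high cells (24.8 to 227.9) and 0.342 CPM in low cells (0 to 83.4), and reached 10 CPM in 13 and 3 cells. In 2i Dusp6 was at 10 CPM in 11 and Etv4 in 3 of 34 cells, against 26 and 27 of all 43 N2B27 cells. Spry4, an inhibitor of RAS signalling, was sparse, at 10 CPM in 6 high cells, 2 middle cells and 1 low cell, with medians of 8.80 CPM in high cells and 0 CPM in the others. Etv5, also of the ETS family, was expressed in nearly every cell, with medians of 392.8 CPM in high cells, 428.2 CPM in middle cells, 221.3 CPM in low cells and 321.2 CPM in 2i. Its levels overlapped over almost the whole range, from 93.7 to 1204 CPM in high cells and from 1.19 to 951.4 CPM in low cells.

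**Figure D3:**
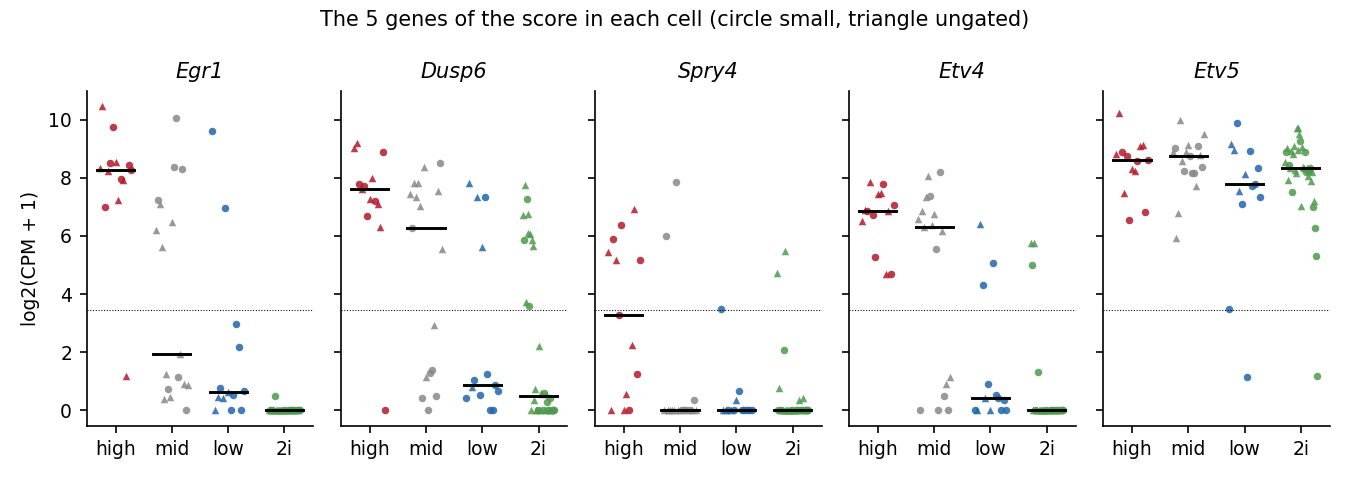
Expression of the 5 score genes as log2(CPM + 1) on the y axis is drawn for each cell of the high, middle (mid), low and 2i sets, with circles for small and triangles for ungated cells. Bars are medians and the dotted line marks 10 CPM. Egr1 is above the line in 12 high and 2 low cells, whereas Etv5 is above it in 13 high and 12 low cells.

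The score genes varied largely independently of each other. Across the 43 cells Spearman's rho between pairs ranged from -0.12 for Spry4 and Etv5 to 0.28 for Dusp6 and Etv4, values that describe sparse counts from 2 samples and carry no test. High cells had 4 (9 cells) or all 5 (4 cells) of the genes at 10 CPM, and low cells had 1 (5 cells), 2 (7 cells) or 3 (1 cell). By construction, a high score marked cells in which most of the 5 genes were present together.

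Each score gene was next left out in turn and the 13 highest and lowest cells were chosen by the other 4. Chosen this way, mean Etv4 was 110.1 CPM in high and 38.6 CPM in low cells, a log2 ratio of 1.49 (1.10 in small and 1.75 in ungated cells). Dusp6 had 198.7 and 92.0 CPM, a log2 ratio of 1.10 (0.75 and 1.03). Egr1 had 292.8 and 201.2 CPM, a log2 ratio of 0.54, and reached 10 CPM in 8 high and 5 low cells. In that choice 12 of 13 low cells were small, so no ratio within ungated cells was available. Spry4 had a log2 ratio of -0.05 over all cells, with 0.31 in small and 3.37 in ungated cells, and reached 10 CPM in 4 high and 2 low cells. Etv5 had 0.00, with -0.24 and 0.00 in the gates.

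For all other genes the ratio of mean CPM, with 1 added to both means, was computed for high over low cells, over all 26 cells and again within small (6 against 9) and within ungated cells (7 against 4). A gene was called higher or lower when the 3 log2 ratios had the same sign and a size of at least 1, a 2-fold difference. Of 8912 genes with a mean of at least 5 CPM over the 43 cells and a count in at least 10 of them, 879 were higher (9.86%) and 379 lower (4.25%) in high cells. The median log2 ratio over all 8912 genes was 0.08. Higher genes were 69.9% of the calls. With scaling to the spike-ins the counts were 1733 and 161, or 91.5% higher, and the median over all genes was 0.95.

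These calls have a high background, which is the yardstick for the gene groups below. Of 2405 genes with a size of at least 1 in both gates, 1285 had the same sign in small and ungated cells and 1120 had opposite signs. Calls were most frequent among weakly expressed genes. From 5 to 20 CPM 16.0% of genes were higher and 6.39% lower, and at 100 CPM or more 2.39% and 0.565%. The mean of the middle set lay between those of the high and low sets for 608 of the 879 higher and 244 of the 379 lower genes. In none of the called genes, 0 of 879 and 0 of 379, did every high cell exceed or fall below every low cell.

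Among ERK target genes outside the score, a larger share was higher in high cells than among all genes. Of 57 such genes in a list of immediate-early genes and a list of feedback genes and ETS factors, 35 were expressed well enough to be compared. Of these 13 were higher, or 37.1% against 9.86% of all genes, and 0 were lower. Their median log2 ratio was 1.09, with 1.65 in small cells and 1.25 in ungated cells, against 0.08 for all genes. With the ends taken as 20 cells each, 4 of the 35, or 11.4%, were called higher against 5.85% of all genes, and the median was 0.38 against 0.05. The lists were put together with earlier results of these data known, and genes of both lists share targets and regulators with the score genes.

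The immediate-early genes accounted for most of this. Of 32 listed, 21 were compared and 10 were higher, or 47.6%, with a median log2 ratio of 1.59. They were Fos, Junb, Myc, Klf6, Nr4a1, Ier2, Phlda1, Ccn1, Plaur and Arc. Egr2, Egr3, Egr4, Fosb, Fosl2 and Atf3 had no count in any of the 43 cells. The summed level of the list ranged from 915.6 to 3186 CPM in high cells and from 4.15 to 1765 CPM in low cells, with medians of 1450 and 708.1 CPM, and the sets overlapped.

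Promoters of 3 called genes are shown, the immediate-early genes Fos and Junb, whose products pair, and Errfi1 of the feedback list, with 1 promoter that held a motif. In high cells Fos and Errfi1 were at 10 CPM together in 4 cells, and Junb with either of them in 2. The sequences are the 250 bases before the transcription start in RefSeq, in build GRCm38.p6, read 5′ to 3′ on the strand of the gene, with capitals for any match on either strand to 3 motifs, namely the CArG box bound by the serum response factor, the cAMP response element TGACGTCA and the ETS site CCGGAAG. The Fos promoter is chr12:85473640-85473889 on the plus strand, the Junb promoter chr8:84978749-84978998 on the minus strand and the Errfi1 promoter chr4:150854820-150855069 on the plus strand.
Fos: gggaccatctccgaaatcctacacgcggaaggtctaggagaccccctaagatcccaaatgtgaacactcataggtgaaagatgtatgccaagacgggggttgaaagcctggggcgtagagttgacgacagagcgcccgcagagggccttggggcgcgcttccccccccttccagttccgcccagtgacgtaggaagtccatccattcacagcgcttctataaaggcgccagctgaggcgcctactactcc
Junb: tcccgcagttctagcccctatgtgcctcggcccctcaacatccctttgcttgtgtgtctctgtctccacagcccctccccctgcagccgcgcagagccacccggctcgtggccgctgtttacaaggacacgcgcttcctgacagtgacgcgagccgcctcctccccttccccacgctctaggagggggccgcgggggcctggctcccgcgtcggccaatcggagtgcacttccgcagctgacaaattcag
Errfi1: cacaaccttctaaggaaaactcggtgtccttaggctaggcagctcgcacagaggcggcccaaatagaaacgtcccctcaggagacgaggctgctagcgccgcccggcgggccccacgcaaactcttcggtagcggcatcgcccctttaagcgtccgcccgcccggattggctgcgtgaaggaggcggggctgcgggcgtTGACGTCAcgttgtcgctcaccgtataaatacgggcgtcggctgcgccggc

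Among the 13 called genes, 9 were found in the sequence table, with 10 promoters, and 1 of these, that of Errfi1, held a motif, TGACGTCA. The same motif was in 1.55% of all 32851 promoters and in 3.03% of promoters of the genes compared. CCGGAAG was in 6.91% of all promoters and 16.1% of those of genes compared, and the CArG box in 1.47% and 1.09%. None of the 10 promoters held CCGGAAG or a CArG box in these 250 bases, which says nothing of sites elsewhere. Of all ERK target genes compared, called or not, 25 were in the sequence table, with 35 promoters. Each of the 3 motifs was in 3 of these promoters, or 8.57%. Egr1, Spry4, Etv4, Myc, Ier2, Phlda1 and Arc were not shown.

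Fos (chr12:85473890-85477273), which forms the AP-1 transcription factor with JUN proteins, ranged from 0 to 225.2 CPM in high cells with a median of 0.473, and from 0 to 0.604 CPM in low cells. It reached 10 CPM in 6 high cells, 3 of each gate, in 1 of 17 middle cells, in no low cell and in 3 of 34 cells in 2i. Over the 13 low cells it had 1 count against 1808 over the high cells. The ratio of summed counts, scaled to depth, was 1756 with an exact interval of 314.8 to 69398, which covers the counting of reads only. Fos was thus at 10 CPM or more in some of the high cells, and below that level in the rest and in every low cell.

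Myc (chr15:61985391-61990374), a transcription factor that drives growth, was similar. It ranged from 0 to 158.4 CPM in high cells with a median of 20.8 and reached 10 CPM in 8 of them, 4 of each gate. It did so in 3 middle cells, no low cell and 7 of the 34 cells in 2i. Its summed counts were 1793 and 1 and their ratio 1741 (interval 312.2 to 68823). Myc was called in all 24 alternative analyses and Fos in 23.

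Klf6, a zinc finger factor, reached 10 CPM in 9 high and 5 middle cells and in no low cell, with a mean of 83.9 CPM in high and 0.34 CPM in low cells. In 2i, where MEK was inhibited, it did so in 25 of 34 cells. Its ratio turned to -0.27 on the log2 scale when the cells of i705 to i715 alone were used. Junb, a partner of FOS, ranged from 0 to 93.1 CPM in high cells with a median of 13.3 and from 0 to 70.1 CPM in low cells with a median of 0, and reached 10 CPM in 7 and 2 cells. Ier2, an immediate-early nuclear protein, was the most broadly expressed. It ranged from 66.4 to 734.6 CPM in high cells with a median of 313.7 and from 0 to 545.5 CPM in low cells with a median of 23.3, and was at 10 CPM or more in 13 and 8 cells. Its log2 ratio of 1.09 was close to the limit of 1, and it was called in 12 of 24 alternatives.

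Ccn1, a secreted matrix protein, had a median of 177.2 CPM in high and 0.441 CPM in low cells and reached 10 CPM in 9 and 3 cells. Nr4a1, an orphan nuclear receptor, and Plaur, the urokinase receptor, each reached 10 CPM in 6 high cells and 1 low cell, with log2 ratios of 2.96 and 2.87. Nr4a1 also did so in 9 of 17 middle cells, where its mean was 98.4 CPM against 81.8 CPM in high cells, and Plaur in 3. In 2i, Nr4a1 and Plaur reached 10 CPM in 16 and 7 of 34 cells. For both the ratio was larger in small cells (5.04 and 5.92) than in ungated cells (1.93 and 1.24). Arc, best known from synapses, reached 10 CPM in 6 high cells, 4 of them ungated, and in no low cell. Phlda1 was weakly expressed, with means of 7.02 and 1.66 CPM. Among the 11 immediate-early genes compared and not called, Sgk1, Plk3, Klf10 and Jund were higher in small and lower in ungated high cells, with log2 ratios of 1.69 and -0.77 for Sgk1 and 1.47 and -0.96 for Plk3.

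**Figure D4:**
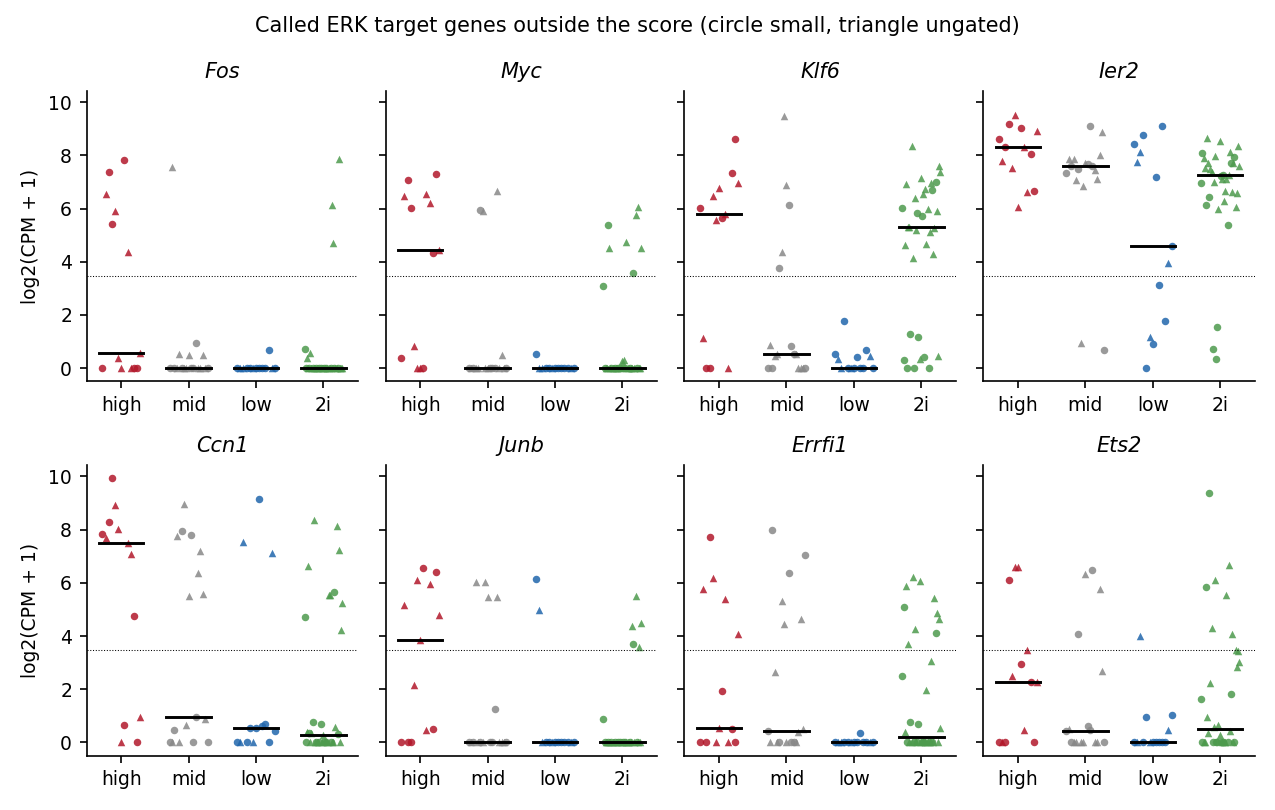
Expression of 8 of the 13 called ERK target genes as log2(CPM + 1) on the y axis is drawn for each cell of the high, middle (mid), low and 2i sets, with circles for small and triangles for ungated cells. Bars are medians and the dotted line marks 10 CPM. Fos, Myc, Klf6 and Errfi1 are above the line in no low cell, and Ier2 is above it in 13 high and 8 low cells.

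Counted per cell, 4 to 9 of the 13 called genes were at 10 CPM or more in high cells (median 7), 1 to 7 in middle cells (median 3) and 0 to 4 in low cells (median 1). In 2i the range was 0 to 10 with a median of 4. These genes were called because they were higher in high cells, so the order of the N2B27 sets is fixed by the choice.

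Negative feedback genes and ETS factors gave fewer calls. Of 25 listed, 14 were compared and 3 were higher, or 21.4%, with a median log2 ratio of 0.41, which was 1.23 in small and 0.10 in ungated cells. Errfi1, an inhibitor of the EGF receptor, reached 10 CPM in 5 high and 6 middle cells and in no low cell, where it had 1 count against 1032, a ratio of 1002 (interval 179.5 to 39628). Ets2 reached 10 CPM in 4 high cells and 1 low cell, with means of 22.3 and 1.34 CPM. Elk1, an ETS factor that ERK phosphorylates, reached 10 CPM in 3 high cells and no low cell, with 278 counts and 1 count, a ratio of 270.0 (interval 48.1 to 10703). Of its summed CPM in high cells 53.2% was in 1 cell. Mean Elk1 was 8.08 CPM in high, 8.21 CPM in middle and 15.9 CPM in 2i cells. In 2i it reached 10 CPM in 15 of 34 cells.

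The feedback genes most closely related to those of the score were not called. Spry2 had means of 53.9 CPM in high and 59.9 CPM in low cells and reached 10 CPM in 9 and 8 cells. Dusp4 had 29.98 and 55.2 CPM, and Dusp1, a phosphatase that is itself an immediate-early gene, had 209.2 and 120.3 CPM with a log2 ratio of 0.79. Spred1 and Spred2 had log2 ratios of -1.66 and -0.71. Dusp5 and the ETS factor Etv1 had 3.70 and 1.66, with opposite signs in small (6.69 and 4.54) and ungated cells (-3.28 and -0.87). Ccnd1, the cyclin through which growth factors drive entry into S, had 119.9 and 39.2 CPM, and its log2 ratio was 6.14 among small but -0.09 among ungated cells.

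**Figure D5:**
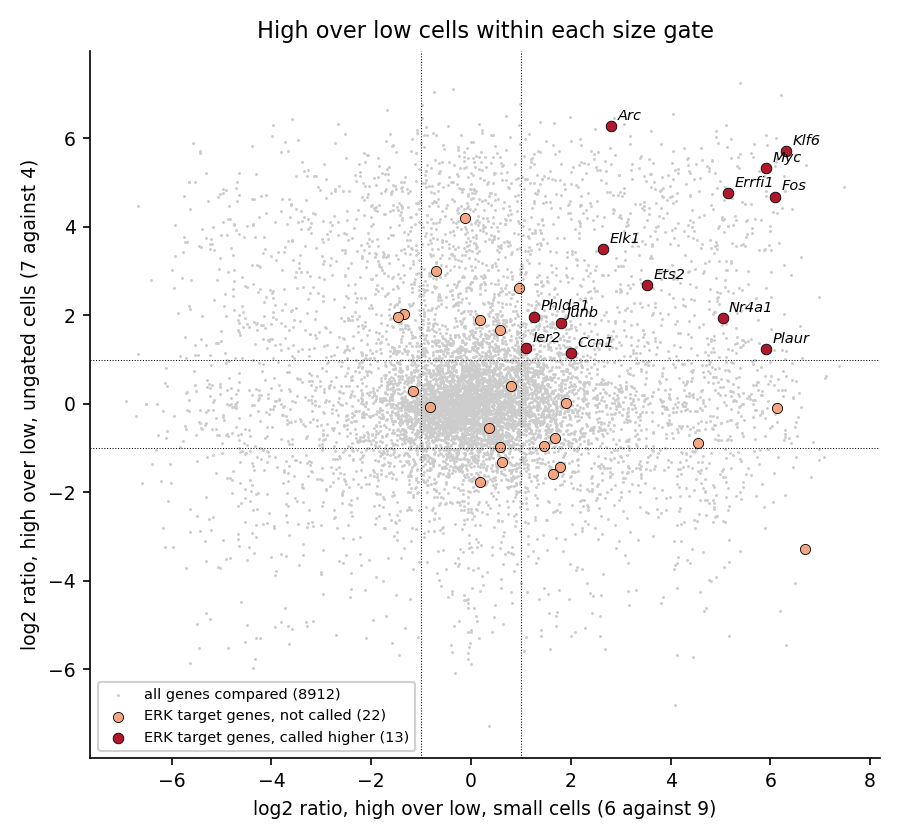
The log2 ratio of mean CPM + 1 in high over low cells is plotted for small cells (x axis, 6 against 9 cells) and ungated cells (y axis, 7 against 4 cells), with all 8912 genes in grey, the 13 ERK target genes called higher in dark red and the other 22 in light red. Dotted lines mark a size of 1. The grey points spread into all 4 corners, 1285 with the same sign and 1120 with opposite signs past the lines, and no ERK target gene lies in the lower left corner.

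Components of the cascade itself gave fewer calls than its targets. Of 32 genes for FGFs, their receptors, adaptors, RAS, RAF, MEK and ERK proteins and their substrates, 22 were compared, 3 were higher (13.6% against 9.86%) and 0 lower. Fgf4, the FGF that ES cells secrete, had a median of 44.1 CPM in high cells (0 to 305.3) and 0.332 CPM in low cells (0 to 139.4), and was at 10 CPM in 10 and 3 cells. Its log2 ratio was 2.12, with 2.77 in small and 1.25 in ungated cells. It was at 10 CPM in 8 of 17 middle cells and in 23 of 34 cells in 2i. Rps6ka1, a kinase that ERK activates, was at 10 CPM in all 13 high cells, where it ranged from 60.6 to 495.2 CPM, and in 6 low cells, where its median was 0.922 CPM. Braf, a kinase of the RAF family, was at 10 CPM in only 3 high cells and 1 low cell.

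The receptors were not called. Fgfr1 and Fgfr2 had log2 ratios of -1.26 and -2.41, with opposite signs in the gates for Fgfr1 (-3.68 and 0.72). Transcripts of the MEK kinases were present in both sets, with means in high and low cells of 238.4 and 117.9 CPM for Map2k1 and 196.1 and 133.7 CPM for Map2k2, which encode MEK1 and MEK2. Neither of these kinase genes was called.

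Genes of the naive network, transcription factors and other genes of the 2i state that are lost in differentiation, did not go down in high cells as a group. Of 16 genes compared 3 were higher (18.8% against 9.86% of all genes) and 1 was lower (6.25% against 4.25%), with a median log2 ratio of 0.40. Klf4, Tbx3 and Tfcp2l1 were higher. Tbx3 had a median of 17.1 CPM in high and 0 CPM in low cells and was at 10 CPM in 7 and 0 cells. Klf4 was at 10 CPM in 6 and 0 cells but at low levels, and its ratio turned negative in 3 alternatives. Tfcp2l1 was at 10 CPM in 6 and 2 cells. Tcl1, a cofactor of AKT kinase, was lower, with a median of 50.7 CPM in high cells (0 to 135.8) and 104.8 CPM in low cells (0.374 to 1109) and a log2 ratio of -2.17. Zfp42, which encodes REX1, had means of 1864 and 1139 CPM and a log2 ratio of 0.71, and Nanog had 490.0 and 242.7 CPM and a log2 ratio of 1.01, with 0.29 in ungated cells.

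Of 12 genes of general pluripotency 2 were higher (16.7% against 9.86% of all genes) and 0 lower, with a median log2 ratio of 0.29. Zfp281, a factor needed for exit from the naive state, had a log2 ratio of 2.14 (2.40 in both gates) and was at 10 CPM in 10 high and 5 low cells. Lin28a, an RNA-binding protein, had 1.56 and was at 10 CPM in 4 and 3 cells. Pou5f1 had 0.41 and Sox2 -1.02, the latter with -1.27 in small and 1.69 in ungated cells. Of 11 genes of the formative and primed states that were compared, 2 were higher (18.2% against 9.86%), Myc and Cldn6, a tight junction protein. All 11 ratios over all cells were above 0, 7 of them in both gates, against 53.3% and 30.4% of all genes. The median of the 11 was 1.07. Dnmt3l, a cofactor of DNA methyltransferases, had means of 395.1 and 126.6 CPM and was at 10 CPM in 13 high and 4 low cells, and its log2 ratio was 4.31 among small and 0.46 among ungated cells. Otx2 had a log2 ratio of 2.00 with 0.42 in small cells. Cldn6 was at 10 CPM in 6 high cells and no low cell, with 3 counts in low cells and a ratio of 379.1 (interval 129.4 to 1841).

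Of 17 glycolysis genes compared 3 were higher, or 17.6% against 9.86% of all genes, and 0 were lower. A log2 ratio above 0 was found for 16 of the 17 over all cells and for 13 in both gates, against 53.3% and 30.4% of all genes. The median over the 17 was 0.97, and it was 1.09 in small and 0.48 in ungated cells. Ldha, lactate dehydrogenase, ranged from 284.3 to 3193 CPM in high cells with a median of 894.8 and from 0.553 to 965.4 CPM in low cells with a median of 25.3, and had a log2 ratio of 2.41 (2.19 and 2.69). It was at 10 CPM in 13 high and 8 low cells. In 2i its mean was 970.3 CPM, close to that of high cells. Slc16a3, a lactate exporter, was at 10 CPM in 6 and 0 cells, with 3 counts in low cells and a ratio of 640.4 (interval 218.8 to 3108). Hk1 was at 10 CPM in 4 and 0 cells, and its sign turned in 7 alternatives. Aldoa, Pkm and Eno1 had log2 ratios of 0.97, 0.94 and 0.67 and were not called.

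Other signalling lists were short, so that their shares rest on 1 or 2 genes. Of 6 BMP and Id genes compared 2 were higher (33.3% against 9.86% of all genes), Bambi and Smad1, the latter with a log2 ratio of 1.09. Bambi, a decoy receptor, was at 10 CPM in 5 high cells, 1 of them small, and no low cell. It had 1835 counts and 1 count, a ratio of 1782 (interval 319.5 to 70434). Of its summed CPM in high cells 64.9% was in 1 cell. Bambi was also at 10 CPM in 4 middle cells and in 11 of 34 cells in 2i. Id1, Id2 and Id3 were not called. Of 8 Nodal and Lefty genes 0 were called. Nodal had means of 167.4 and 86.6 CPM, and its log2 ratio was 2.45 among small but -0.52 among ungated cells, and Tdgf1, its coreceptor, had medians of 400.3 and 2.76 CPM and a log2 ratio of 1.18, with 0.80 in ungated cells. Of 4 Wnt targets Notum was higher (25.0%), at 10 CPM in 3 high cells.

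Calls among cell-cycle genes were near or below the shares of all genes. Of 22 S phase genes E2f1 was higher and Ccne2 lower (4.55% each), and of 24 G2/M genes 0 were higher and Cdc25c was lower (4.17%), against 9.86% and 4.25% of all genes. The median log2 ratios of the S and G2/M lists were -0.09 and -0.03. Cdk1 had means of 513.1 and 387.6 CPM and Ccna2 had 324.7 and 399.5 CPM. The summed G2/M list ranged from 1620 to 10124 CPM in high cells and from 1026 to 11669 CPM in low cells. E2f1, the factor that opens S phase, was at 10 CPM in 4 high cells and 1 low cell, and Cdc25c, which activates CDK1, in 2 and 5.

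Among lists of stress and metabolism, 3 of 14 p53 targets were higher (21.4% against 9.86% of all genes). Perp, a membrane protein of desmosomes, had the largest difference, with a median of 91.3 CPM in high cells (0 to 425.9) and 0.277 CPM in low cells (0 to 0.922), at 10 CPM in 8 and 0 cells. Sesn2, also counted in the integrated stress response list, where it was the 1 called gene of 10, was at 10 CPM in all 13 high and 7 low cells with medians of 294.0 and 72.8 CPM. Bbc3, which promotes apoptosis, had a log2 ratio of 1.55, while Bax and Cdkn1a had 0.07 and 0.32. Of 13 heat shock and stress genes Txnip, an inhibitor of thioredoxin, was higher (7.69%), with a median of 119.7 against 0.374 CPM and 11 against 3 cells at 10 CPM. Hsp90aa1 and Hspa8 had log2 ratios of -0.25 and 0.58. Of 18 cholesterol genes Pmvk and Lss were higher (11.1%), and of 20 ribosome biogenesis genes Rrp12 was (5%), at 10 CPM in 9 and 0 cells.

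Markers of other cell types were mostly absent. None of 12 primitive endoderm markers and none of 10 markers of 2-cell-like cells passed the filter on level. Their summed levels were 0 to 92.8 and 0 to 0.309 CPM in high cells and 0 to 214.4 and 0 to 0.604 CPM in low cells, and Pdgfra, Foxa2, Afp, Ttr and Zscan4d were at 0 in all 43 cells. Of 10 feeder fibroblast markers Vim and Fn1 were compared, which ES cells also express, and neither was called, while Col1a1, Col1a2, Col3a1 and Thy1 were at 0. The summed level of that list was 46.8 to 791.3 CPM in high and 0 to 918.3 CPM in low cells. Of 10 trophoblast markers 3 were compared. Gata3 was higher, a share of 33.3% against 9.86% of all genes that rests on 1 gene. It was at 10 CPM in 5 high cells and no low cell with means of 26.4 and 0.149 CPM. Krt18 and Tfap2c were not called, and Elf5 and Tpbpa were at 0. The summed level of the list was 13.6 to 623.9 CPM in high and 0 to 526.2 CPM in low cells.

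The genes with the largest differences in both gates were of mixed function. Fads1, a fatty acid desaturase, ranged from 0 to 285.1 CPM in high cells with a median of 94.1 and from 0 to 1.11 CPM in low cells, at 10 CPM in 11 and 0 cells. Itpk1, an inositol phosphate kinase, was at 10 CPM in 11 and 0 cells, with a median of 89.5 CPM in high cells and a highest low cell at 0.882 CPM. Both reached 10 CPM in most high cells and in no low cell, although 6 and 5 low cells had a count. In 2i they were at 10 CPM in 26 and 22 of 34 cells. Ermp1, Ric8b, Ddx4, Tpra1, Sirt7, Pard6g and Ak3 were at 10 CPM in 4 to 7 high cells and no low cell, and Klf6, described above, completes the 10. Ermp1 and Ric8b had 1 count in the low set, with ratios of 2029 (interval 363.8 to 80178) and 2445 (438.4 to 96597). Ddx4 and Ak3 had 2, with ratios of 986.8 (272.8 to 8154) and 1195 (330.5 to 9874), and Pard6g had 3, with 706.1 (241.3 to 3427).

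In the other direction Usp28, a deubiquitinase, ranged from 0 to 405.1 CPM in low cells with a median of 11.96 and from 0 to 4.27 CPM in high cells, and was at 10 CPM in 7 low cells, 4 of them small, and no high cell. Chn2, Tmem241, Mfsd11, Tmtc4, Jakmip1, Ikbkg, Phtf2, Trp53i13 and As3mt were at 10 CPM in 3 or 4 low cells and no high cell. Mean Phtf2, Tmem241 and Trp53i13 were 60.6, 50.8 and 40.6 CPM in middle cells, against 32.3, 47.8 and 38.5 CPM in low cells. Usp28 and the rest of these had lower means in middle than in low cells. As3mt had 1 count in high cells, with a ratio of low over high of 1274 (interval 228.2 to 50345). Chn2 and Mfsd11 had 2, with 811.3 (224.2 to 6705) and 707.3 (195.4 to 5846), and Tmem241 had 3, with 643.1 (219.7 to 3121). These 9 genes thus rested on few cells, in contrast to Usp28, Fads1 and Itpk1.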

How the data were processed

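Single-cell RNA sequencing was performed by the authors on 96 mouse ES cells in 4 samples of 24 cells. Per the submitters' processing notes and the study's methods, reads were trimmed with Trim Galore 0.4.4, aligned to mm10 (GRCm38) with GSNAP and counted on Ensembl release 81 genes with HTSeq, and the authors deposited whole-number counts per gene and cell, neither normalized nor pooled. Deposited columns carry only index names, so cells were matched to samples through the deposited list of sequencing runs, and 0 columns of another sample were used. On the kept N2B27 cells 75.5% of the counts were on genes, and the rows for spike-ins and unassigned reads stayed out of CPM. Of 46078 gene identifiers 45229 were given a symbol from GENCODE M21, of the same build. Reads that overlap more than 1 gene are dropped in counting, and library strand was not given in the sources used here, so overlapping and antisense genes are uncertain. Without molecular identifiers, counts are reads, and intervals cover counting error only.

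The members and the gene lists were chosen with earlier results of these data known. Cells with at least 1200000 gene counts, at least 4400 genes and at most 5.2% mitochondrial counts were kept, and doublet callers were not run on these singly sorted cells. The 13 highest and 13 lowest N2B27 cells by score were compared as log2 ratios of mean CPM with a pseudocount of 1, over all cells and within each gate, and a gene was called when all 3 ratios had the same sign and a size of at least 1. Genes needed a mean of at least 5 CPM and a count in at least 10 cells. There are no p-values, since a condition is a single sample and the sets were chosen from the cells compared. Genes named in the text were the 5 score genes, the called genes of 22 lists, up to 4 genes of each list with the highest mean CPM, and the 10 called genes in each direction with the largest smallest ratio, while others were named after their values were seen. Phases came from cyclone in scran 1.30.0 with its 667 mouse markers, and alternative size factors from DESeq2 1.42.0, in R 4.3.3. Other steps used Python 3.11.15 with numpy 2.4.6, pandas 2.3.3, scipy 1.17.1 and matplotlib 3.10.9. The calculation was run on counts simulated with known changes. These had the same spread setting for every gene and no choice of cells by score. Sparse expression and that choice were thus not covered. Alternatives covered the filters on cells and genes, the scaling, the pseudocount, the summary over cells, the number of cells per set, the genes of the score and the phase, and 1 alternative, on library indices, was added after the data were seen. Some items are not reported here.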

Additional observations from a re-analysis of the deposited data

Results flagged for a closer look

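In 3 of the genes that the naming rule chose, the ratio within the small cells and the ratio within the ungated cells had opposite signs and a size of at least 1, and that difference was not tested. Id2, an inhibitor of DNA-binding factors, had log2 ratios of high over low cells of 6.06 among small and -2.23 among ungated cells, and was at 10 CPM in 4 small high cells and in 3 ungated low cells. Tfap2c, a transcription factor of trophoblast and of early germ cells, had -2.75 in small and 1.11 in ungated cells. Znrf3, a membrane protein that limits Wnt signalling, had -1.56 in small and 3.82 in ungated cells. Of the genes named besides, Sox2 (-1.27 in small and 1.69 in ungated cells), Spred1 (-1.34 and 2.02), Dusp5 (6.69 and -3.28) and Klf10 (1.78 and -1.44) also had such ratios. Opposite signs of this size were common, at 1120 of the 2405 genes past 1 in both gates.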

How the results depend on the processing

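No paired analysis was possible because the groups share no replicates and no result comes from a test. With ratios over all cells alone, 1946 genes were higher and 1305 lower, against 879 and 379. With sets of which only 1 gate gave a ratio, calls rested on the ratio over all cells, and the counts of higher and lower genes were 2297 and 1500 for a score without Egr1, 2359 and 1459 within S and 1446 and 1294 within G2/M. Spike-in factors gave 1733 higher and 161 lower genes with a median log2 ratio over all genes of 0.95, and means of log2 values gave 1510 and 128 with a median of 0.73, and calls were not counted relative to those shifts. Higher genes were 91.5% and 92.2% of the calls under these scalings, 69.9% in the main comparison and 52.8% (within G2/M) to 87.7% (without the highest cell of each gene) in the others. Leaving out the highest cell gave 183 lower genes, a mean of at least 20 CPM gave 492 higher and 224 lower, and 20 cells per set gave 521 higher. Of the ERK target genes 13 of 35 were higher (37.1% against 9.86% of all genes). At 20 CPM 8 of the 22 compared were higher (36.4% against 7.58%). Of 35 again, 4 were higher with 20 cells per set (11.4% against 5.85%) and 20 without Egr1 in the score (57.1% against 25.8%). Without Dusp6 there were 7 (20% against 9.40%). With 14 cells per set, taken at each end within each gate, there were 8 (22.9% against 9.37%). Their median log2 ratio of 1.09 became 1.61 with no filter on cells, 1.98 with spike-in factors, 1.41 with means of log2 values, 0.38 with 20 cells per set, 0.69 without Dusp6, 0.65 without Etv5 and 0.43 with ends taken within gates. Among the i705 to i715 cells, 10 per set, 992 genes (11.1%) were higher, 385 of them shared with the main comparison. Of the 35 ERK target genes 12 were higher (34.3%). The share of small cells in the high set was 22.2% to 62.5% over the alternatives, within its wide interval of 19.2% to 74.9%. With ends taken within gates, the share was fixed at 50% by that choice. In the low set it left its interval without Egr1 in the score (92.3%) and within G2/M (11.1%). The cause of these changes was not tested beyond the construction named.

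Of 59 named genes that were called, 43 kept their direction in all 24 alternatives. The alternatives on the gene filter, the pseudocount and the ratio over all cells alone could not turn a direction. Of 1416 log2 ratios of these genes over the alternatives, 783 lay within 1 standard deviation between the gates of the main ratio. Another 602 moved further, and 31 turned. Without Egr1 in the score the log2 ratio turned for Braf (-0.23), Cldn6 (-0.44), Ddx4 (-0.26), Klf4 (-0.74), Slc16a3 (-0.30), Smad1 (-2.14), Tmem241 (0.28) and Trp53i13 (0.64). Within S it turned for Arc (-0.71), Chn2 (0.82), Errfi1 (-0.36), Notum (-1.12), Smad1 (-0.15) and Tmem241 (0.33), and within G2/M for Gata3 (-0.50), Hk1 (-1.44), Klf4 (-0.94) and Tfcp2l1 (-0.072). With 20 cells per set it turned for Hk1 (-0.36), Klf4 (-0.23) and Tmem241 (0.23), and with 10 for Smad1 (-0.48). Without Dusp6 it turned for Hk1 (-1.15) and Notum (-0.57), without Etv5 for Hk1 (-0.20) and with scaled score genes for Notum (-0.37). Hk1 also turned with cells filtered at 3 median absolute deviations (-0.55) and with ends taken within gates (-0.58). Among i705 to i715 cells it turned for Hk1 (-1.69), Klf6 (-0.27) and Notum (-0.55).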
